A study of Ovis aries with 7 samples.

Results

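Histone acetyltransferases transfer an acetyl group from acetyl-CoA to lysines of histone tails. Acetylated tails are bound by bromodomain and YEATS proteins and mark active promoters and enhancers, and deacetylases remove the mark. In early embryos this chemistry accompanies the start of transcription from the embryonic genome, and inhibitors of histone deacetylases have long been applied to cloned embryos. The 10 genes described here were listed by name rather than by a threshold on measured values, though with earlier results of these data known, and all 10 were found among 31304 rows of the expression table. They fall into 4 groups: the p300/CBP coactivators EP300 and CREBBP, the GNAT enzymes KAT2A and KAT2B, the MYST enzymes KAT5, KAT6A, KAT6B, KAT7 and KAT8, and the type B enzyme HAT1, which acetylates newly made histone H4 before it enters chromatin.

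RNA came from sheep (Ovis aries) 8-cell embryos and was read by Smart-seq2, a full-length method for very small amounts of polyA RNA. The labels name 3 libraries of embryos made by in vitro fertilization (IVF) and 4 of cloned embryos from somatic cell nuclear transfer (SCNT), in which a somatic nucleus takes the place of the egg's own. Only the 3 IVF libraries are described. The other 4 columns are headed by a name found in none of the labels, so the SCNT samples were not analysed here and are compared with nothing. No breed, sex, maternal age or number of embryos per library is stated in the sources used here. The protocols speak of repeated trials for each group but do not say which library belongs to which trial, and part of the variation among libraries may come from handling.

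Values are TPM, a transcript's share of its library after correction for gene length, so levels may be compared roughly between genes within a library. The annotation behind the lengths is not named. Whether long and short transcripts were captured equally was not tested, and this limits every ranking of genes below. How many reads lie behind a value is unknown, and low values carry no counting interval. Means are given ± SD over the 3 libraries.

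The libraries carried RNA of the oocyte and early embryo. The marker list mixes genes of both, so its count does not by itself date the libraries to cleavage. Of 13 embryo and oocyte markers, 12 had at least 1 TPM in every library, and their summed level was 2208 to 3400 TPM. The embryonic homeobox gene ARGFX was highest of them by mean, at 376, 1022 and 444 TPM in replicates 1, 2 and 3. For other cell types the same threshold was passed by 3 of the 10 cumulus and granulosa markers in the table (summed level 45.9 to 81.3 TPM, led by GATM), 4 of 12 fibroblast markers (16.1 to 27.8 TPM, led by VIM) and 1 of 9 sperm markers (11.4 to 15.1 TPM, ODF2). Of all rows with a gene symbol, 49.0% passed this threshold. FOXL2, PTX3, PRM1 and AKAP4 were listed at 0 in all libraries. Replicate 2 differed most often from the others by gene counts, and mitochondrially encoded genes took 4.88% of its TPM against 2.25% and 1.66% in replicates 1 and 3.

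All 10 acetyltransferase genes were detected, with at least 1 TPM in every library, as were 49.0% of all rows with a gene symbol. Their median level was 13.0, 16.5 and 12.5 TPM in replicates 1, 2 and 3, a mean of 14.0 ± 2.18, against 1.51 ± 0.212 for all symbol rows. Levels were spread widely within the family: the mean of the highest gene, HAT1, was 72.6 times that of the lowest, KAT6A. Together the 10 genes held 664, 535 and 590.2 TPM in the same order. HAT1 supplied most of this sum, and KAT8 the next largest part.

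**Figure D1:**
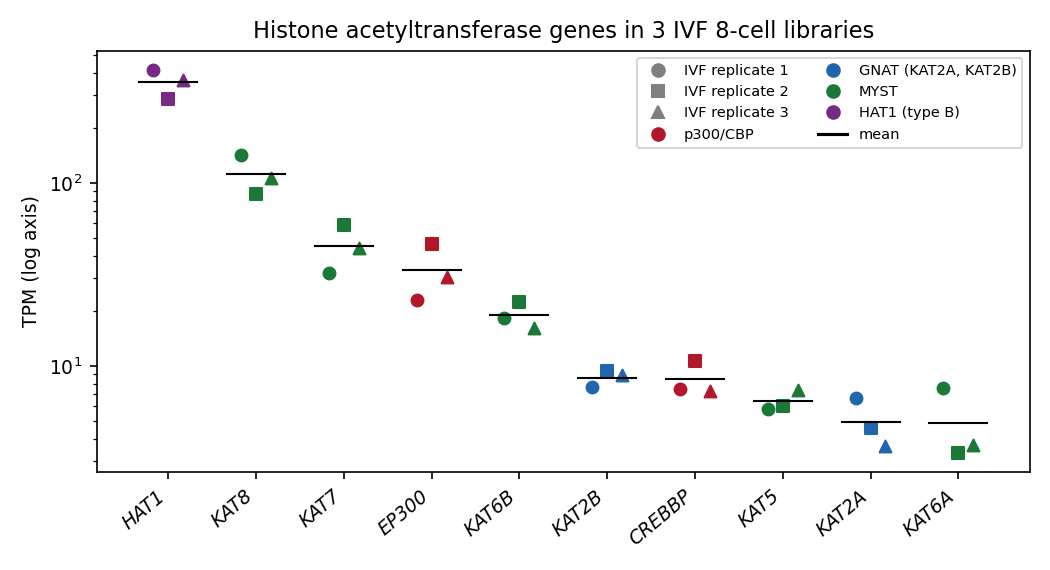
TPM of each acetyltransferase gene on a log axis, in order of mean level; symbols are the 3 IVF libraries, colours the enzyme groups and bars the means. HAT1 lies between 286 and 414 TPM, above all other members in each library, and KAT2A and KAT6A lie lowest by mean.

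HAT1, the type B enzyme, was at 414, 286 and 363 TPM in replicates 1, 2 and 3. Every library placed it above the other 9 members, with replicate 2 the lowest. Its mean of 354 ± 64.2 TPM stood at rank 332 among the symbol rows. On the log2(TPM + 1) scale HAT1 exceeded the median of the other members by 5.58, 4.62 and 5.21 in replicates 1, 2 and 3, a mean difference of 5.14 ± 0.49, larger than its spread. Its share of the family's summed TPM was 62.3, 53.5 and 61.5%, a mean of 59.1 ± 4.84%.

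HAT1 works with the histone-binding proteins RBBP7 and RBBP4 and hands H3-H4 dimers on to chaperones. In the list of 6 such partners and chaperones all had at least 1 TPM in every library, with a median of 93.3 ± 21.5 TPM. RBBP7 was at 716, 849 and 749 TPM, above HAT1 in all 3 libraries. RBBP4 was at 416, 181 and 299 TPM, close to HAT1 in replicate 1 and below it in replicates 2 and 3. ASF1B, an H3-H4 chaperone, followed at 152 ± 48.2 TPM, and the importin IPO4 was lowest at 8.05 ± 1.93. HAT1 therefore ranked above 4 of the 6 in every library and below 1.

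The MYST enzymes share a catalytic domain and differ in the complexes that carry them. KAT8 (MOF), which acetylates histone H4 within the MSL and NSL complexes, was the second most abundant member at 142, 87.1 and 106 TPM in replicates 1, 2 and 3, with replicate 1 highest. Its mean was 111 ± 27.6 TPM, and HAT1 exceeded it by 1.67 ± 0.12 on the log2(TPM + 1) scale in 3 of 3 libraries. KAT7 (HBO1), linked to replication origins and to histone H3 and H4 acetylation, was at 32.3, 58.5 and 43.9 TPM. KAT7 was lower than KAT8 in every library, by 2.10, 0.57 and 1.25 on the log2 scale, so that the gap narrowed most in replicate 2. The mean gap of 1.30 was larger than its SD of 0.77.

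KAT6B (MORF) was at 18.4, 22.3 and 16.1 TPM, and its paralog KAT6A (MOZ) at 7.59, 3.34 and 3.70. Both enzymes are carried by BRPF scaffold proteins. KAT6B was the higher in all 3 libraries, by 1.17, 2.42 and 1.86 on the log2(TPM + 1) scale, a mean of 1.82 ± 0.63, and the ranges of the paralogs did not overlap. KAT6A was about 2-fold higher in replicate 1 than in the others and had the largest relative SD of the family, 48.3% of its mean. KAT5 (TIP60), the catalytic subunit of the NuA4/TIP60 complex that also acts in DNA repair, was at 5.77, 6.05 and 7.40 TPM, a mean of 6.41 ± 0.871. KAT5 was thus the lowest MYST gene in replicate 1 but not in replicates 2 and 3, where KAT6A was lower.

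The p300/CBP coactivators acetylate histones at enhancers and promoters where transcription factors recruit them. EP300 was at 22.9, 46.5 and 30.7 TPM and CREBBP at 7.51, 10.7 and 7.30 TPM in replicates 1, 2 and 3. Both were highest in replicate 2, and the lowest EP300 value lay above the highest CREBBP value. EP300 exceeded CREBBP by 1.49, 2.02 and 1.93 on the log2(TPM + 1) scale, a mean of 1.82 ± 0.29, or 3.05, 4.35 and 4.20 times on the TPM scale. The mean difference was several times its SD.

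KAT2A (GCN5) and KAT2B (PCAF) are alternative catalytic subunits of the SAGA and ATAC coactivator complexes. KAT2B was at 7.65, 9.34 and 8.86 TPM, a narrow range. KAT2A was at 6.63, 4.60 and 3.62 TPM, always below KAT2B. The paralogs differed by 0.18, 0.89 and 1.09 on the log2(TPM + 1) scale, a mean of 0.72 ± 0.48, so in replicate 1 they were nearly level. This was the smallest of the 3 paralog differences by mean; whether the pairs differ from each other was not tested.

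**Figure D2:**
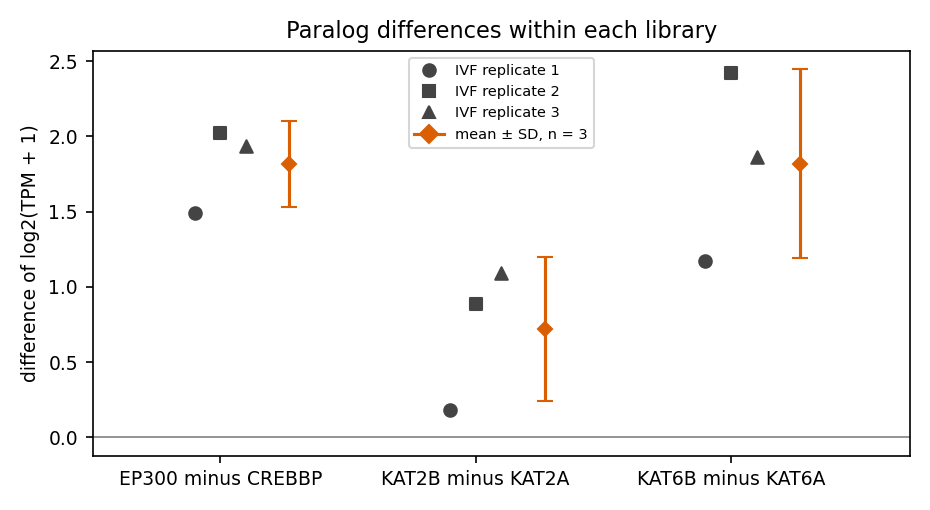
Difference of log2(TPM + 1) between paralogs within each IVF library (symbols), with the mean ± SD of 3 libraries (diamonds). All 9 differences lie above 0, from 0.18 for KAT2B minus KAT2A in replicate 1 to 2.42 for KAT6B minus KAT6A in replicate 2.

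Ordered by mean TPM the family ran HAT1, KAT8, KAT7, EP300, KAT6B, KAT2B, CREBBP, KAT5, KAT2A and KAT6A. Each of the first 5 exceeded its next neighbour in all 3 libraries, and the mean step was larger than its SD; the smallest of these steps was KAT7 over EP300, 0.44 ± 0.10 on the log2(TPM + 1) scale. Below KAT6B a plain step of 1.04 ± 0.22 led to KAT2B. The last 5 genes were not separated by neighbouring steps. KAT2B and CREBBP differed by 0.03 ± 0.21, CREBBP and KAT5 by 0.35 ± 0.37, KAT5 and KAT2A by 0.34 ± 0.52, and KAT2A and KAT6A by 0.06 ± 0.28, each with an order that changed between libraries. Over all 45 pairs of members, 39 had the same order in every library and 6 did not. With 3 libraries an exact two-sided sign-flip test cannot give a p below 0.25, so no p-value is given for any pair.

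Shares of the summed TPM showed how uneven the groups were. The MYST genes held 31.4 ± 1.63% of it, of which KAT8 alone made 18.5 ± 2.56% and KAT7 7.75 ± 3.05%. EP300 and CREBBP together held 4.57, 10.7 and 6.44% in replicates 1, 2 and 3, highest in replicate 2. KAT2A and KAT2B together held 2.15, 2.61 and 2.12% in replicates 1, 2 and 3, a mean of 2.29 ± 0.274% and the smallest share.

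Each library was also set against the mean of the other 2 on the log2(TPM + 1) scale. Genes whose mean reached 5 TPM lay 2-fold or more away in 13.4% of cases for replicate 1, 16.7% for replicate 2 and 3.44% for replicate 3. Of the 8 members that passed this mean, 0 were 2-fold away in any library. With so few genes that count is close to what those background shares give, and nothing particular to the family is read from it. KAT2A and KAT6A lay just under the mean of 5 TPM, at 4.95 ± 1.54 and 4.88 ± 2.36. KAT6A reached 0.93 in replicate 1, and 1.03 when libraries were scaled by the median of ratios, past the 2-fold line.

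Members differed from each other in the direction of their deviations. A gene's deviations cancel out over the libraries by construction, so opposite signs in different libraries are partly forced and are not separate observations. The median gene itself lay at -0.07, 0.19 and -0.12 in replicates 1, 2 and 3. Relative to it, EP300 was lower in replicate 1 (-0.63) and higher in replicate 2 (0.60), and KAT7 likewise (-0.57 and 0.43). HAT1 lay the other way, at 0.43 in replicate 1 and -0.63 in replicate 2, as did KAT8 (0.62 and -0.68) and KAT6A (0.99 and -0.74). KAT2B stayed near the median gene, at -0.16, -0.03 and 0.18, and so did KAT6B, at 0.02, 0.16 and -0.19. With TPM as deposited, KAT2B and KAT5 had the smallest SD of log2(TPM + 1) over libraries in the family, 0.13 and 0.17. These SDs lay at percentiles 7.87 and 11.97 of those of genes whose mean reached 5 TPM. The order of the SDs depended on scaling. With median-of-ratios scaling, KAT2B was at 8.55 ± 1.04 TPM and KAT5 at 6.43 ± 1.56. KAT6B and CREBBP then varied less, at 18.6 ± 0.799 and 8.30 ± 0.605 TPM. The higher mitochondrial share and the higher ARGFX of replicate 2 accompany the members' deviations, and their part in them was not tested. ARGFX does not stand for its whole list. Of the 12 embryo and oocyte markers whose mean reached 5 TPM, 5 were at least 2-fold higher in replicate 2 and 1 was lower. Over all 6978 genes with such a mean, 895 were higher and 269 lower there.

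**Figure D3:**
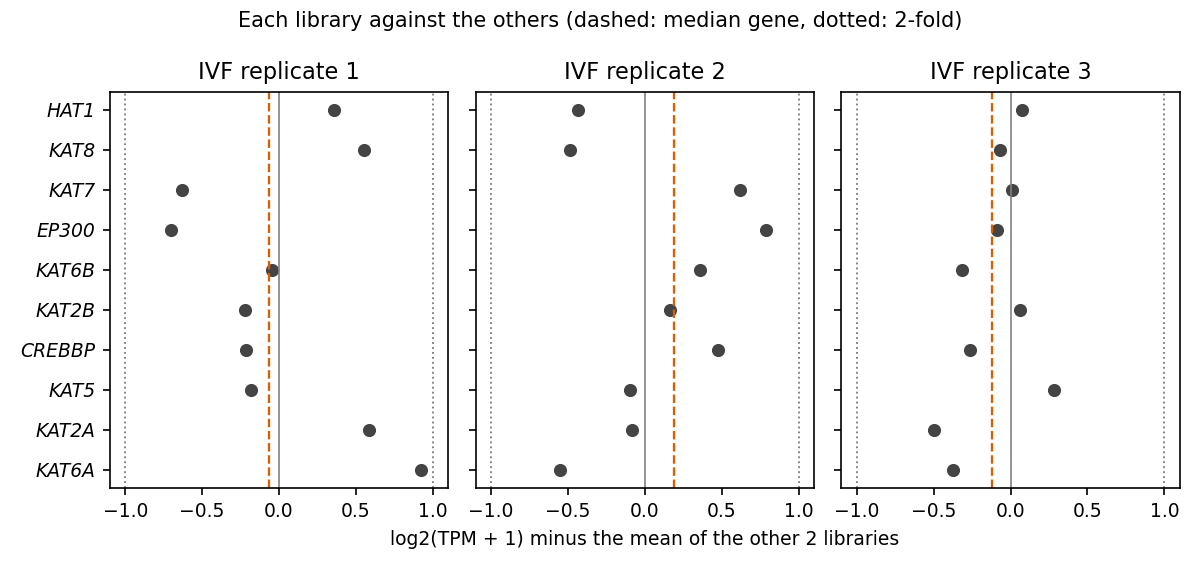
log2(TPM + 1) of each member minus the mean of the other 2 libraries, in a panel per IVF replicate; the dashed line is the median gene among those whose mean reached 5 TPM and dotted lines mark 2-fold. With TPM as deposited all points lie inside the 2-fold lines, with KAT6A at 0.93 in replicate 1 nearest to them, and EP300 and HAT1 lie on opposite sides of 0 in replicates 1 and 2.

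The acetyltransferases work inside complexes, and the members differed in how they ranked against their partners. In the lists of complex partners, other acetyltransferases, acetyl-CoA enzymes and acetyl-lysine readers, 89 of 94 genes had at least 1 TPM in every library. The share over all symbol rows was 49.0%, and it applies to the counts of each list below. KAT7 was above all 9 genes of the BRPF and JADE scaffold list in each library. That list had a median of 4.31 ± 1.27 TPM and was led by BRPF3 (25.5, 43.7 and 22.3 TPM) and the shared subunits MEAF6 (13.7 ± 5.55) and ING4 (9.34 ± 5.50), while the scaffold JADE2 was at 0.0521, 0.351 and 0.171 TPM. KAT6B was above 7 of these 9 in all libraries, and KAT6A above 3.

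KAT8 was above 10 of 11 MSL and NSL partners in every library. The exception, KANSL2, an NSL subunit, was at 98.2, 99.95 and 76.6 TPM and passed KAT8 in replicate 2. The list's median was 11.1 ± 2.26 TPM. The glycosyltransferase OGT was at 19.9, 69.4 and 24.6 TPM, highest in replicate 2 where KAT8 was lowest, and the cofactor HCFC1 at 29.5 ± 8.62. The scaffold MSL1 was lowest at 1.63, 2.52 and 0.753 TPM.

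KAT5 ranked the other way. Of 17 NuA4/TIP60 partners, all at 1 TPM or more throughout, 14 were above KAT5 in every library, and only EPC1, a scaffold subunit named here after its values were seen, was below it in all 3, at 5.14, 5.66 and 4.19 TPM. The list's median was 19.4 ± 2.09 TPM. VPS72, which also serves the SRCAP complex, was highest by mean, at 484, 244 and 265 TPM. MORF4L1, a chromodomain subunit, was at 218, 314 and 286, above VPS72 in replicates 2 and 3, and YEATS4, an acetyl-lysine reader, at 106 ± 30.7. EPC2, the paralog of EPC1, was lowest by mean at 1.88, 6.56 and 2.202.

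SAGA and ATAC partners had a median of 14.8 ± 1.36 TPM, with 25 of 28 at 1 TPM or more in every library. Of the 28, 19 were above KAT2A and 17 above KAT2B in all libraries. The leaders were SF3B5 (570, 990.2 and 887 TPM), which also belongs to the spliceosome, ENY2 (466 ± 81.5), which also serves mRNA export, and TAF9 (251 ± 38.7), which also belongs to TFIID. The deubiquitinating module gene ATXN7 was lowest by mean, at 0.615, 1.30 and 0.609 TPM.

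**Figure D4:**
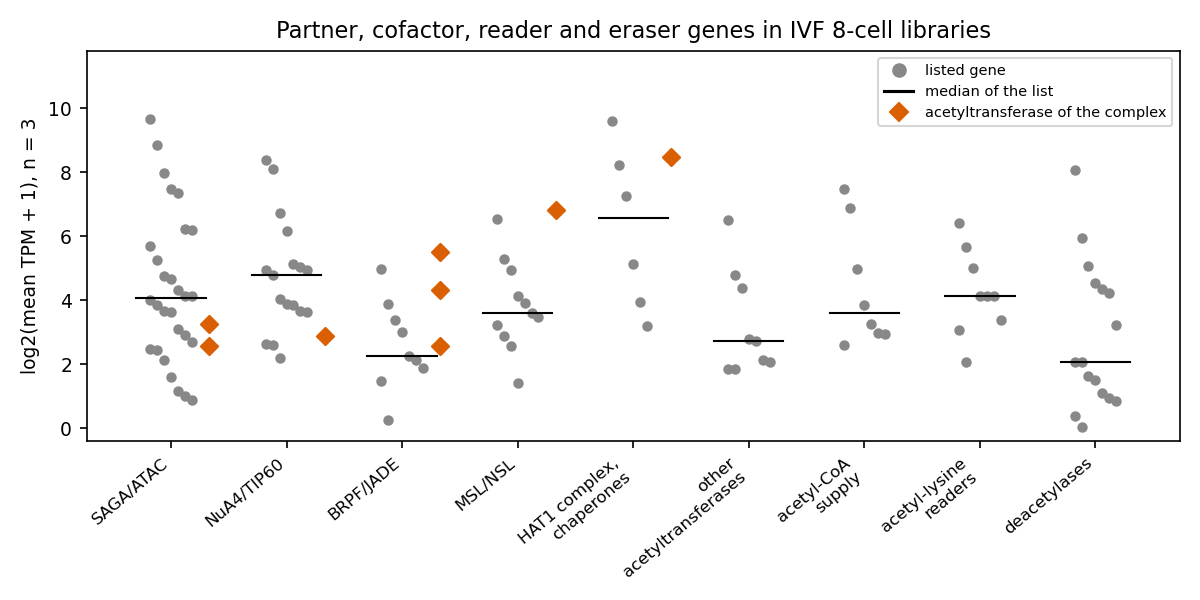
log2(mean TPM + 1) over 3 IVF libraries for each listed gene (grey points) with the value for the median gene of each list (bars); diamonds show the acetyltransferases of the complex. KAT7 and KAT8 lie at the top of their lists by mean, whereas KAT5 and the KAT2 genes lie below their lists' medians.

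Genes of other proteins with described acetyltransferase activity had a lower median than the 10 members (14.0 TPM). Their median was higher than that of all symbol rows (1.51 TPM). The list of 9 had a median of 4.27 ± 0.615 TPM, with the transcription factor ATF2 at 87.3, 93.7 and 87.0 TPM, the circadian factor CLOCK at 26.4 ± 5.50 and the Elongator subunit ELP3 at 10.02, 33.3 and 15.7. TAF1, the largest TFIID subunit, was lowest by mean at 2.60 ± 1.05.

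Genes that supply acetyl-CoA were all detected, with a median of 11.99 ± 0.691 TPM over 8 genes. The most abundant act in the mitochondrial pyruvate dehydrogenase complex: DLD at 168, 233 and 136 TPM, PDHB at 116 ± 13.2 and PDHA1 at 30.6 ± 4.02. Of the enzymes that make acetyl-CoA outside mitochondria, ACSS2, which uses acetate, was lowest of the list by mean, at 2.78, 8.48 and 3.95 TPM, and ACLY, which cleaves citrate, was at 4.68, 9.16 and 6.01. Both were highest in replicate 2. ACLY was chosen after its values were seen.

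Proteins that bind acetylated lysine had a median of 16.3 ± 2.69 TPM, and 9 of 9 genes were at 1 TPM or more. BRDT, a bromodomain gene best known from the male germ line, was the highest at 84.7, 97.7 and 71.8 TPM. Its ubiquitous relative BRD2 was at 31.4 ± 10.2, and BRD7, of a SWI/SNF complex, at 75.1, 45.4 and 30.2. MLLT1, a YEATS protein of elongation complexes, was lowest at 3.20 ± 0.689.

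Beside the 10 acetyltransferases, all detected, 4 of 11 HDAC genes, the classical deacetylases, had at least 1 TPM in every library. The share over all symbol rows was 49.0%, so with 11 genes the HDAC count lies near the background. Some HDAC genes missed the threshold in a single library only, and nothing is read from the contrast. The median of the 11 HDAC genes was 1.65 ± 0.603 TPM. The 5 listed sirtuins all passed, with a median of 16.7 ± 1.02. HDAC2, at 247, 316 and 247 TPM, was below HAT1 in replicates 1 and 3 and above it in replicate 2. HDAC1 at 20.8, 49.4 and 27.7 lay close to EP300 in each library, and HDAC3 was at 103, 32.8 and 44.7. HDAC4 was at 0.0507, 0 and 0.00543 TPM. No test between the groups of enzymes was made, since genes are not replicates.

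By the RefSeq annotation, 6 members overlap no other gene, and 0 lie wholly inside another. KAT2A, KAT2B, KAT6A and KAT6B touch other annotated genes over at most 1.20% of their span. The overlapping protein-coding genes, HSPB9 beside KAT2A and DUSP29 beside KAT6B, had means of 0.0332 and 0.0983 TPM. A tRNA row overlapping KAT6B, TRNAG-GCC, was at 0.813, 4.22 and 0 TPM, and the other overlapping rows, both LOC identifiers, were listed at 0. The sources used here do not say whether counting used strand.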

How the data were processed

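The authors deposited TPM, which scales by gene length and to a sum of 1000000 per library. The submitters' processing notes name fastp 0.23.4 for trimming reads and HISAT2 2.2.1 for alignment. They name no sheep build; build, annotation and counter: not given in the sources used here. Columns were matched to samples by name, which placed 3 in the IVF group, and 4 further columns of per-sample values stayed unused. Sequencing depth is unknown.

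The 10 members, the gene lists and the tests were chosen with earlier results of these data known. Levels are mean ± SD (n = 3); differences are of log2(TPM + 1) and understate ratios where levels are low. Genes with at least 1 TPM count as detected. Deviations of a library use genes whose mean reached 5 TPM. This step was checked on simulated data with much less noise than these libraries, which does not show how it behaves at their noise. Named genes are all members and, from each list, the 3 highest, the lowest and those at 0 throughout; from marker lists only the highest and those at 0. Symbol rows exclude LOC, tRNA and mitochondrial rows. Row names matched the ARS-UI_Ramb_v3.0 gene table, whose build may differ, for 28875 of 31304 rows and all 10 members; it gave overlaps only. Alternatives were pseudocounts, thresholds, scalings and leaving out each library. Python 3.11.15, numpy 2.4.6, pandas 2.3.3 and matplotlib 3.10.9 were used.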

Additional observations from a re-analysis of the deposited data

How the results depend on the processing

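Alternatives for the gene lists and for shares of the summed TPM were chosen after seeing the data. No paired analysis was possible because IVF is the sole group with matched columns. Of 230 values under alternatives 217 moved by less than 1 SD (counts: by less than 1.5 times); 156 of the 230 left out a library, which can hardly move a mean by a whole SD. The median level of the members went from 14.0 to 16.6 TPM without mitochondrially encoded and ribosomal protein genes, because every other gene is scaled up. The 4 differences between members kept their sign in all 24 of their values, but this was fixed in advance. Each difference had the same sign in every library, and no pseudocount, scaling or left-out library can change that. EP300 exceeded CREBBP by 1.47 rather than 1.82 with a pseudocount of 5, which shrinks low ratios. With each library left out, the EP300 difference ranged from 1.71 to 1.98, KAT2A minus KAT2B from -0.99 to -0.53, KAT6A minus KAT6B from -2.14 to -1.52 and HAT1 over the others from 4.91 to 5.39. At 5 TPM 8 of the 10 members were detected in every library. Sperm markers at 1 TPM or more numbered 4 without replicate 1, against 1. Median-of-ratios scaling shifted the median gene by 0.12, -0.33 and 0.22 (log2) in replicates 1, 2 and 3, and turned the sign of deviations near 0, namely KAT6B in replicate 1, KAT2B in replicate 2, and KAT8 and EP300 in replicate 3. Unknown depth limits what low values show.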
